A study of Mus musculus with 4 samples.

Results

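Plasma cells are the antibody-secreting end stage of the B cell lineage. They were picked out here among CD45+ cells, the blood-derived immune cells, sorted from crypts of the small intestine of male mice fed either extra cystine, the disulfide-linked dimer of cysteine, or a control diet. Members were chosen by UMI counts. A cell barcode was taken when it had at least 300 genes, at most 10% mitochondrial UMIs (unique molecular identifiers, 1 per captured RNA molecule), at least 3 UMIs of Jchain, at least 1 of Mzb1 and 1 of Xbp1, and none of Cd3e, Cd3d, Cd3g or Siglech. That rule gave 80 members among 68087 kept barcodes: 47 and 22 in cystine samples 1 and 2, against 7 and 4 in control samples 1 and 2. The 4 samples, 2 per diet, were 5′ single-cell libraries (10x Genomics). Titles gave the diets, since the treatment label of all 4 reads "Control". The labels give neither strain nor age, and they do not say whether a sample is 1 mouse or a pool, so each p-value reflects no more than the spread among these samples, which may be technical.

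Plasma cells of the gut wall mostly secrete IgA as a polymer, in which the joining chain, encoded by Jchain, links antibody units through disulfide bonds. To secrete antibody at a high rate the cell enlarges its endoplasmic reticulum (ER) under the transcription factor Xbp1, and signal peptidase, chaperones, oligosaccharyltransferase and disulfide isomerases process each chain on its way out. Blimp-1, encoded by Prdm1, shuts off the B cell programme as the cell matures, including Pax5 and the surface protein CD20, encoded by Ms4a1.

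The libraries held between 27229695 and 31301936 UMIs. Median depth per kept barcode was 1355 and 1552 UMIs in the cystine samples and 1394 and 1758 in the control samples. Members were deeper, with medians of 4959 and 6787 UMIs in the cystine samples and 5197 and 3994.5 in the control samples. Each pair of libraries shared 334 to 451 kept barcodes by sequence. No member barcode was a member in another library, and at most 3 members per pair of libraries recurred there as another kept barcode. The rule used Jchain, Mzb1 and Xbp1, so their levels are given as a description only. Just inside it lay 1 member with exactly 3 Jchain UMIs and 21 with exactly 1 Xbp1 UMI. Just outside it were 2 barcodes with 2 Jchain UMIs and 48 that lacked only Xbp1. A further 56 barcodes met every condition except the absence of Cd3 UMIs (29 and 15 in the cystine samples, 6 and 6 in the control samples), and 18 of them had a single Cd3 UMI. Of these 56, 44 had at least 10% immunoglobulin UMIs (24 and 10 in the cystine samples, 5 and 5 in the control samples), so the rule leaves out nearly as many such barcodes as the 54 it keeps.

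The 80 members did not form 1 population. Immunoglobulin genes took between 0.608% and 79.1% of a member's UMIs, with no member between 5.13% and 13.7%. A line at 10%, set after these values were seen, divides 54 Ig-rich members from 26 Ig-poor ones. In the cystine samples 32 of 47 and 17 of 22 members were Ig-rich, and in the control samples 3 of 7 and 2 of 4. Both kinds were therefore present in every sample, and the comparisons between them describe the cells without a test.

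Ig-rich members carried the transcripts of secreting plasma cells. Their median share of immunoglobulin UMIs was 48.0%, and they held a median of 171 Jchain, 26 Mzb1 and 6.5 Xbp1 UMIs per cell. Derl3, a plasma cell gene for ER-associated degradation, was present in 43 of 54, and Sdc1, which encodes the surface marker CD138, in 17 of 54. Prdm1 was found in 10, Irf4, a factor needed for plasma cell formation, in 15, and Tnfrsf17, the survival receptor BCMA, in 3. Pax5 had no UMI in any of the 54, which allows a share of cells with a UMI of up to 5.56% and sets no limit on cells that express it. The median depth outside immunoglobulin genes was 2669 UMIs in Ig-rich and 4466.5 in Ig-poor members. Ms4a1 was still present in 28 of 54, or 51.9%, whereas 4.82% and 1.16% of T cells in the cystine samples and 0.581% and 0.327% in the control samples had a Ms4a1 UMI. T cells, taken as barcodes with at least 2 UMIs over Cd3e, Cd3d and Cd3g and none of Mzb1, should lack Ms4a1. Their median depth was 1382 to 1758 UMIs, against 6208.5 in Ig-rich members.

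Ig-poor members went against the plasma cell label. They held a median of 1.34% immunoglobulin UMIs, 7.5 Jchain, 6 Mzb1 and 1 Xbp1 UMI per cell, with Derl3 in 1 of 26, Sdc1 in 1 and Prdm1 in 1. Ms4a1 was present in 24 of 26, Pax5 in 14 and Bcl6, a repressor of plasma cell formation, in 6. In 19 of 26 Ig-poor members, at least 2 UMIs came from 8 genes of cell division, against 2 of 54 Ig-rich members. After thinning each cell to 1000 UMIs outside immunoglobulin genes these counts were 8 of 26 and 0 of 51. They are called Ig-poor members here and are given no cell type name. The 1 Ig-poor member nearest the gap, in cystine sample 2, had 5.13% immunoglobulin UMIs, 101 Jchain and 91 Cd79a UMIs.

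**Figure D1:**
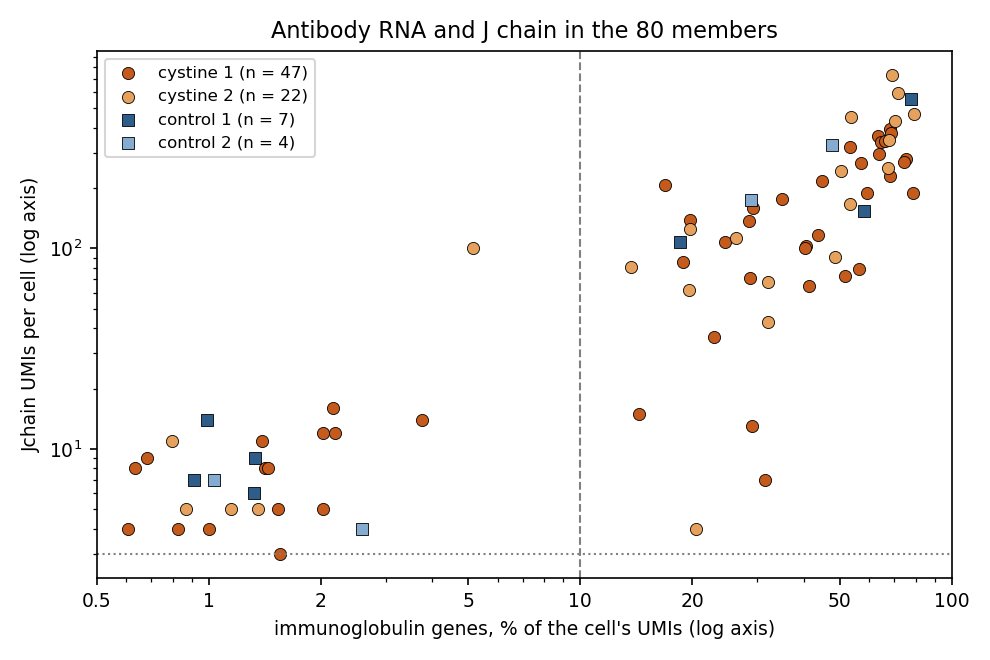
Jchain UMIs per cell (log axis) against the share of the cell's UMIs in immunoglobulin genes (log axis) for the 80 members, 1 point per cell, circles for cystine and squares for control samples. The dashed line marks 10% and the dotted line the rule's minimum of 3 Jchain UMIs; 54 cells lie right of 10% and 26 left of it, with an empty stretch between 5.13% and 13.7%.

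Heavy chain isotypes were mixed, and IgA did not dominate. An isotype was called where at least 10 UMIs fell in heavy chain constant genes, by the gene with most of them, which was possible in 55 members, 52 of them Ig-rich. Ighm (IgM) led in 20, Ighg2b (IgG2b) in 16, Igha (IgA) in 14, Ighg1 (IgG1) in 3, and Ighg2c and Ighg3 in 1 each. Ighd and Ighe led in 0 of 55, which allows a share of up to 5.45%. In cystine sample 1 the 33 calls were 10 Igha, 11 Ighm, 11 Ighg2b and 1 Ighg1. The 17 calls of cystine sample 2 were 3 Igha, 8 Ighm, 5 Ighg2b and 1 Ighg2c. Control sample 1 had 1 cell each of Igha, Ighm and Ighg1, and control sample 2 had 1 of Ighg1 and 1 of Ighg3.

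The share of IgA among called members was 30.3% (exact Clopper-Pearson 95% interval 15.6 to 48.7) and 17.6% (3.80 to 43.4) in cystine samples 1 and 2, against 33.3% (0.840 to 90.6) in control sample 1 and 0 of 2 cells in control sample 2. These intervals, like all limits given here, cover counting error only. The groups overlapped, with means of 23.98% ± 8.95 and 16.7% ± 23.6 (SD, n = 2 each; two-sided exact permutation p = 1). With 2 samples per diet that test cannot go below 0.33. Without control sample 2 the difference turned from 7.31 to -9.36 percentage points. With barcodes that held Cd3 UMIs also taken in, the means were 31.2% ± 2.21 in the cystine samples and 26.8% ± 2.53 in the control samples (SD, n = 2 each), and the groups did not overlap (two-sided exact permutation p = 0.33, the smallest possible).

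Antibody UMIs were also counted in T cells. Igkc, the kappa constant gene, was found in 5.21% and 1.33% of T cells in the cystine samples and 1.06% and 0.474% in the control samples. Heavy chain constant UMIs did not follow it, and where they came from was not tested. Igha UMIs were found in 5.67% and 4.60% of T cells in the cystine samples and 3.37% and 3.91% in the control samples, never more than 3 per cell. Ighm UMIs were found in 32.5% and 23.8% of T cells in the cystine samples and 18.8% and 23.4% in the control samples, with at most 8 per cell. The minimum of 10 heavy chain UMIs lies above both of these maxima in T cells. Barcodes with Mzb1 UMIs were left out of the T cells, so these maxima follow in part from how T cells were chosen. It does not lie above B cells, which reached 14 Ighm and 11 Igha UMIs per cell in cystine sample 1. Of the 20 members called Ighm, 17 were Ig-rich. At least 1 Igha UMI was seen in 26 of 54 Ig-rich and 6 of 26 Ig-poor members.

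Among the 3 isotypes called in more than 3 cells, IgA cells had the highest median count of Jchain UMIs, not scaled to depth. Their median was 281 Jchain UMIs (range 101 to 592), against 156.5 (7 to 363) in Ighg2b cells and 99 (4 to 734) in Ighm cells. Median depth was also highest in Igha cells, at 8489.5 UMIs, against 4310.5 in Ighg2b and 6974 in Ighm cells. Pooled over cells and taken relative to UMIs outside immunoglobulin genes, Jchain had the same order. Its share of all UMIs was not compared between isotypes. Of the 14 Igha cells, 10 came from cystine sample 1, and all 10 led with Ighv6-3. Immunoglobulin genes made up a median of 64.9% of UMIs in Igha, 43.2% in Ighg2b and 28.9% in Ighm cells. The ranges of all 3 isotypes overlap, and the 1 Ighg2c cell had 470 Jchain UMIs. Within the 54 Ig-rich members, the share of immunoglobulin UMIs went with the Jchain share of the remaining UMIs (Spearman rho 0.79 across cells, which share 4 libraries and differ in depth). The same measure was 0.43 for Xbp1, 0.20 for Mzb1, -0.43 for Cd74, the invariant chain of MHC class II, and -0.59 for H2-Aa, a class II chain.

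**Figure D2:**
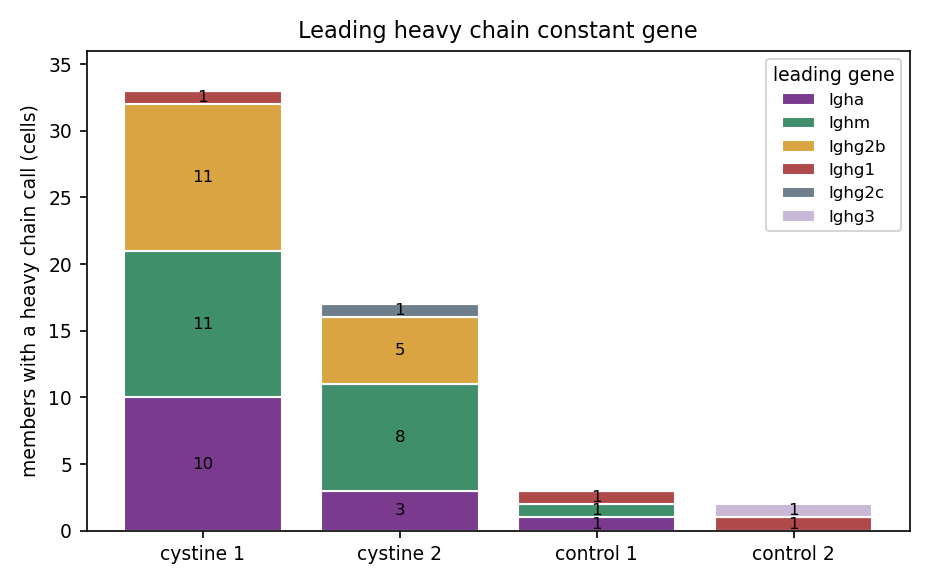
Number of members per sample whose heavy chain constant UMIs came mostly from the gene shown by colour, for the 55 members with at least 10 such UMIs; cystine samples stand left of control samples. Igha, Ighm and Ighg2b share the 33 and 17 calls of the cystine samples, while the control samples have 3 and 2 calls.

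Light chain calls were mostly kappa. By constant genes with at least 10 UMIs, 45 members were kappa and 25 lambda, with 13 of 41 and 9 of 20 lambda in the cystine samples and 1 of 5 and 2 of 4 in the control samples. The mean shares differed by 3.35 percentage points (two-sided exact permutation p = 1), and the groups overlapped. The difference was -3.29 without cystine sample 2 and -11.6 without control sample 1. All 25 members called lambda nevertheless had an Igkv gene as their most abundant light chain variable gene, and 13 of them were Ig-poor. Only 1 member, in cystine sample 1, led with an Iglv gene. Lambda constant UMIs thus stood beside kappa variable UMIs in the same barcodes.

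Because 5′ libraries read the start of the transcript, variable (V) genes carried far more UMIs than constant genes: 48665 heavy chain V UMIs against 4443 heavy chain constant UMIs over all members. Each member was assigned its most abundant heavy and light chain V gene. Heavy chain V genes were called in 63 members and numbered 32, of which 22 led in a single cell. Light chain V genes were called in 79 members and numbered 40, of which 23 led in a single cell. Most V genes thus led in 1 cell only. Ighv6-3 was the main exception: it led in 18 of 63 members, 16 of them in cystine sample 1, none in cystine sample 2 and 1 in each control sample. The next most frequent heavy chain genes, Ighv1-74 and Ighv9-3, led in 4 each. Igkv1-110 led in 12 of 79 members, 10 and 1 in the cystine samples and 1 and 0 in the control samples, ahead of Igkv1-135 and Igkv10-96 with 5 each.

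The V genes to which the most repeated pair was assigned, and Igkv8-27, described further below, are shown because the results on antibody use turn on them. Printed are the last 300 bases of the second coding exon, which encodes the V domain (GENCODE vM21, GRCm38), with in-frame cysteine codons in capitals. Ighv6-3 stands at chr12:114391712-114392011 on the minus strand, Igkv1-110 at chr6:68270968-68271267 on the plus strand and Igkv8-27 at chr6:70171809-70172108 on the minus strand. The mice's own alleles may differ from this reference, and the build differs from the GRCm39 named in the submitters' processing notes.
Ighv6-3: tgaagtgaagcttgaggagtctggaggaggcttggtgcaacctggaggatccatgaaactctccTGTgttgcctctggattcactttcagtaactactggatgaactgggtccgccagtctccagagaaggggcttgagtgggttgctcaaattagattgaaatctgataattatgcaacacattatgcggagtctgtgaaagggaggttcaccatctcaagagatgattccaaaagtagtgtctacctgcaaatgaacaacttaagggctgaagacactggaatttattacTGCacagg
Igkv1-110: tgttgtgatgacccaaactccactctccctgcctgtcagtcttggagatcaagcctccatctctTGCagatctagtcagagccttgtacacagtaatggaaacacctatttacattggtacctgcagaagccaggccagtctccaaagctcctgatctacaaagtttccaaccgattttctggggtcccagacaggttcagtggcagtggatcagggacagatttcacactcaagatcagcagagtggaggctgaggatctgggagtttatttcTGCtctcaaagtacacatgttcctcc
Igkv8-27: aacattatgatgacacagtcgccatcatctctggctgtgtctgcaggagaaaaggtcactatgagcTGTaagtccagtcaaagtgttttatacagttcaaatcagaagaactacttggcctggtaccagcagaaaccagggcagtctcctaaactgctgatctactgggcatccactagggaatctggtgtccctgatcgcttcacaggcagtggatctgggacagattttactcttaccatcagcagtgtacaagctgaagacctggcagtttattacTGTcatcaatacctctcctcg
Each stretch held 2 such codons, which encode the cysteines that close the internal disulfide bond of a V domain. Counts of V genes can be split or merged between near-identical copies. The nearest other gene to Ighv6-3 was Ighv6-6 at 90.8% identity, whereas Igkv1-110 and Igkv1-117 were 97.2% identical and shared a run of 142 bases. Igkv8-27 had no other gene at 90% or more, with Igkv8-19 nearest at 89.0%.

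Ighv6-3 took 24851 of 30667 heavy chain V UMIs (81.0%) of the members in cystine sample 1 and 0 of 13056 in cystine sample 2, which allows up to 0.0230%. In control samples 1 and 2 it took 69.1% of 3892 and 55.2% of 1050. The groups overlapped, since the cystine samples gave both the highest and the lowest value, and each control value rests on 1 cell that led with the gene. Among B cells of the same libraries Ighv6-3 took 5.55% and 3.93% in the cystine samples and 5.53% and 0 of 603 in the control samples. Igkv1-110 took 47.8% and 9.22% of the members' light chain V UMIs in the cystine samples, against 61.1% and 0 of 2380 in the control samples.

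The pair of Ighv6-3 with Igkv1-110 led in 9 of the 62 members with both chains called, 8 in cystine sample 1 and 1 in control sample 1. Over all 62 there were 51 different pairs, and 3 other pairs occurred in 2 cells each. Of the 9 cells, 7 were Igha, 1 Ighg2b and 1 Ighm, and each had between 6154 and 10515 UMIs. All 10 IgA cells of cystine sample 1 led with Ighv6-3, as did 0 of 3 in cystine sample 2 and 0 of 1 in control sample 1. Sharing both V genes does not show that cells share a rearrangement, since no joined V(D)J sequence was used here. Ighv6-3 UMIs were also found in 2.03% of T cells in cystine sample 1, against 0.0502% in cystine sample 2 and 0.0261% and 0.0348% in the control samples.

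Genes of the secretory machinery were higher in Ig-rich than in Ig-poor members. Levels in the next paragraphs are CPM, counts scaled to a common total, computed on the UMIs outside immunoglobulin genes and pooled over the cells of a kind (non-Ig CPM), because antibody RNA would otherwise dilute every other gene. Of 1910 genes compared, 36.4% were higher in Ig-rich than in Ig-poor members. All 20 genes of ER translocation and signal peptidase were higher in the Ig-rich, with a summed level of 17418 non-Ig CPM, against 3583 in the Ig-poor and 2880 in B cells. Ssr4, a subunit of the translocon-associated complex, reached 3881 against 297 in Ig-poor members, and Sec11c, a catalytic subunit of signal peptidase, 2657 against 401. Oligosaccharyltransferase genes, which attach N-glycans, summed to 7677 against 2018, with 10 of 12 higher. ER to Golgi transport genes summed to 5014 against 1447, with 17 of 18 higher.

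Chaperones and folding enzymes of the ER made the largest of these sums apart from joining chain RNA. They summed to 28853 non-Ig CPM in Ig-rich members, 3019 in Ig-poor members and 3737 in B cells, and 21 of 23 genes were higher in the Ig-rich than in the Ig-poor. Hsp90b1, the ER form of HSP90, stood at 6818 against 282, with UMIs in 54 of 54 and 12 of 26 cells. Hspa5, the chaperone BiP that binds free heavy chains, stood at 2585 against 185. Pdia4, a disulfide isomerase, stood at 1947 against 59.4, Creld2 at 1003 against 51.9 and Txndc5 at 1166 against 96.4. Fkbp11, a prolyl isomerase of secretory cells, had 102 UMIs in 29 of 54 Ig-rich members and none in the 26 Ig-poor ones.

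Unfolded protein response and ER degradation genes were higher in 19 of 19, at 6127 against 1261 non-Ig CPM. Derl3 stood at 762 against 14.8 and Herpud1, a stress-induced part of the degradation complex, at 1009 against 312. Disulfide formation and ER redox genes summed to 2872 against 734, with 9 of 11 higher. In that list Ero1lb, an oxidase that reoxidises disulfide isomerases, stood at 228 against 66.8, and Prdx4, an ER peroxiredoxin, at 306 against 89.0. Genes of antibody polymer assembly, Jchain and Mzb1 among them, summed to 94860 against 4333 and to 1452 in B cells. That list holds rule genes, so its sum follows in part from how the members were chosen.

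Promoters of 3 genes that were higher in the Ig-rich are shown because they hold the ER stress response element, the motif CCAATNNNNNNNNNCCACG, a known binding site of ATF6 and XBP1. They cover the 250 bases before each start site (RefSeq, GRCm38.p6), with matches on either strand in capitals. The windows are chr2:34771840-34772089 on the plus strand for Hspa5, chr10:86705445-86705694 on the minus strand for Hsp90b1 and chr10:75893148-75893397 on the plus strand for Derl3.
Hspa5: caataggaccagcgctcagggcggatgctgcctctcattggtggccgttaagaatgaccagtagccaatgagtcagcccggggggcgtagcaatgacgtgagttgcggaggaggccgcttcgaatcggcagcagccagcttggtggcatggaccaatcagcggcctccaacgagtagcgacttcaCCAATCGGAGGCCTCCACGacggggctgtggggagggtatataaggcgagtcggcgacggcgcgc
Hsp90b1: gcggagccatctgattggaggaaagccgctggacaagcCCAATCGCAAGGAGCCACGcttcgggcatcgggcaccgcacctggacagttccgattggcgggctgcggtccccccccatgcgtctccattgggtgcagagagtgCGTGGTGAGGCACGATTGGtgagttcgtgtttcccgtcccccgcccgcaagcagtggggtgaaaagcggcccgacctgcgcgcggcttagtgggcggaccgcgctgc
Derl3: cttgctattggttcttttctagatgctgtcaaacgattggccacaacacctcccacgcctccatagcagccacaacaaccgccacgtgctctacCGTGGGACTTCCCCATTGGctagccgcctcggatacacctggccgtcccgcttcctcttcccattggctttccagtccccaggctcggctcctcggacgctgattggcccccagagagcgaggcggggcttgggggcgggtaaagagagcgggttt
Hspa5 and Derl3 had 1 match and Hsp90b1 had 2. The motif stood in 35 of 27025 genes with a promoter sequence (0.130%). It stood in 7 of the 20 matched chaperone and folding genes (Hspa5, Hsp90b1, Dnajc3, Calr, Canx, Pdia6 and Creld2), in 2 of 17 of the unfolded protein response list (Syvn1 and Derl3) and in 0 of 15 of the translocation list. A match describes the letters of the window and does not show binding in these cells.

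**Figure D3:**
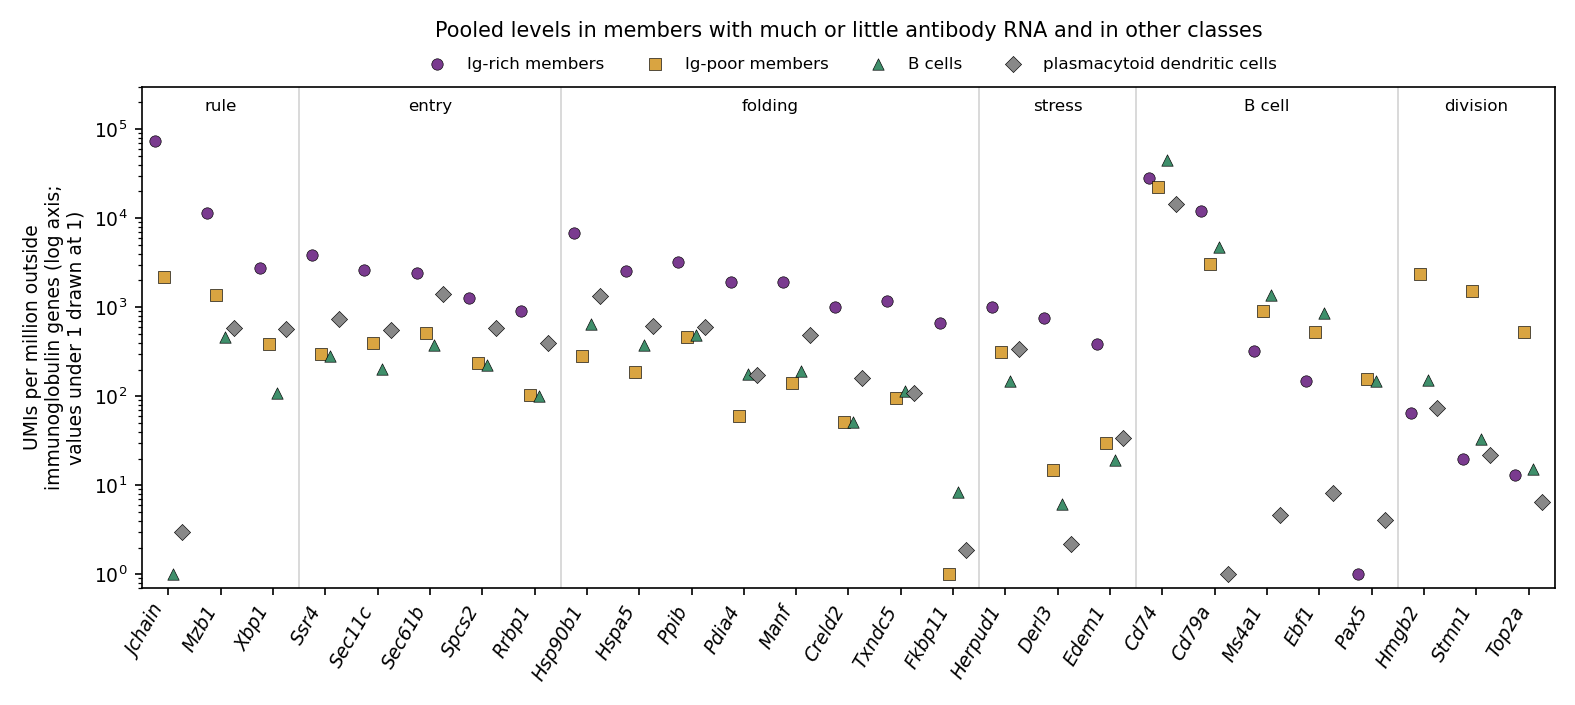
Pooled level of selected genes, in CPM over UMIs outside immunoglobulin genes (log axis, values under 1 drawn at 1), in Ig-rich members, Ig-poor members, B cells and plasmacytoid dendritic cells. Genes for entry into the ER, folding and ER stress are highest in Ig-rich members, while Pax5 and the division genes Hmgb2, Stmn1 and Top2a are higher in Ig-poor members.

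Transcription factors of plasma cells summed to 4005 non-Ig CPM in Ig-rich members, 927 in Ig-poor members and 374 in B cells, mostly from the rule gene Xbp1. Ell2, an elongation factor that favours the secreted form of the heavy chain, had UMIs in 23 of 54 Ig-rich and 0 of 26 Ig-poor members. Creb3l2 was found in 9 and 0. Pou2af1, a B cell coactivator, was found in 32 of 54 and 20 of 26, at 547 and 401 non-Ig CPM.

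Surface and survival genes were higher in 12 of 13. Slamf7 was present in 36 of 54 Ig-rich and 14 of 26 Ig-poor members, and Tnfrsf13b, the receptor TACI, in 19 and 6. Cd93, a surface protein of long-lived plasma cells, was found in 7 and 0, and Il6st, the shared receptor chain of the interleukin-6 family, in 8 and 0. Of the gut homing genes, Ccr9, the receptor for the small-intestinal chemokine CCL25, was found in 8 Ig-rich cells with 11 UMIs, all of them in the cystine samples. Ccr10, the receptor for the mucosal chemokine CCL28, was likewise found in 8 Ig-rich cells with 12 UMIs in the cystine samples. Neither had a UMI in the 5 Ig-rich cells of the control samples, so that a difference was not detectable at this number of cells. Itga4 and Itgb7, which form the gut homing integrin, were found in 17 and 6 Ig-rich members and in 7 and 1 Ig-poor members.

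Of the 18 genes of cystine and cysteine use, 12 had a UMI in any member, and the list summed to 2006 non-Ig CPM in Ig-rich members, 2255 in Ig-poor members and 2088 in B cells. Slc7a11, the cystine transporter, had no UMI in the members, nor had Slc1a4, Gclc, Cth, Cbs and Cdo1. Slc3a2, the partner chain of Slc7a11 and other transporters, was found in 15 Ig-rich and 6 Ig-poor members, and Txn1, thioredoxin, in 31 and 21. Gclm, the modifier subunit of glutathione synthesis, was found in 3 of 54 and 14 of 26. The ATF4 amino acid response summed to 996 and 1016 non-Ig CPM in Ig-rich and Ig-poor members. Within it Phgdh, the first enzyme of serine synthesis, was found in 22 and 10 cells and Psat1, a later one, in 1 and 12.

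B cell identity genes summed to 52776 non-Ig CPM in Ig-rich members, 38081 in Ig-poor members and 71483 in B cells. Most of that sum was Cd74 and Cd79a, and 12 of the 17 genes were lower in the Ig-rich than in the Ig-poor, with 5 higher. Over all 1910 genes compared 36.4% were higher in the Ig-rich, so this split lies near that of all genes. Cd79a, a signalling chain of the B cell receptor, stood at 12086 and 3042 in the Ig-rich and Ig-poor, and at 4779 in B cells. Cd74 stood at 28501, 22502 and 44927 in the same order, so the invariant chain was still abundant in the Ig-rich. The 14 cell division genes were all lower in the Ig-rich, at 417 against 9274 summed non-Ig CPM.

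Markers of other cell types were checked in the same way. T cell markers summed to 1146 non-Ig CPM in Ig-rich members, 408 in Ig-poor members and 2103 in B cells, with Trbc1, Trbc2 and Cd4 at 0 in the members, and Cd3e, Cd3d and Cd3g at 0 because the rule required it. Most of that sum was Gzma, with 84 UMIs, and Ccl5, with 92, against a mean of 46.2 to 75.0 Gzma UMIs per T cell. Monocyte and macrophage markers were limited to Cst3 and Cd68, with Lyz2, Csf1r and C1qa at 0. Plasmacytoid dendritic cell markers summed to 749 and 475 non-Ig CPM with Siglech at 0, as the rule required. Epithelial and Paneth cell markers summed to 729 and 96.4, mostly Defa24, with 81 UMIs in the cystine samples and none in the control samples. Mast cell markers summed to 19.5 and 0. Their part in the results was not tested.

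Members were a larger share of the kept barcodes on the cystine diet. The share was 0.243% (95% interval 0.179 to 0.324) and 0.133% (0.0832 to 0.201) in the cystine samples, against 0.0416% (0.0167 to 0.0857) and 0.0260% (0.00709 to 0.0666) in the control samples. Both cystine samples lay above both control samples. The means were 0.188% ± 0.0783 and 0.0338% ± 0.0110 (SD, n = 2 each), a difference of 0.154 points and a ratio of 5.56, with a two-sided exact permutation p of 0.33, the smallest that 2 against 2 samples allow. Without cystine sample 1 the difference was 0.0989 points. With the Ig-rich alone the shares were 0.166% and 0.103% in the cystine samples and 0.0178% and 0.0130% in the control samples.

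B cells moved with them. B cells, taken as barcodes with Cd79a and Ms4a1 UMIs and none of Jchain, Cd3e, Cd3d, Cd3g or Siglech, made up 6.47% and 3.04% of kept barcodes in the cystine samples and 1.03% and 1.19% in the control samples. Per 100 B cells there were 3.76 and 4.37 members in the cystine samples, against 4.05 and 2.19 in the control samples. On that scale the groups overlapped (two-sided exact permutation p = 0.667). Ig-rich members alone numbered 2.56 and 3.37 per 100 B cells in the cystine samples, against 1.73 and 1.09 in the control samples. These groups did not overlap, but that separation depends on the rule. Ig-rich members numbered 32 and 17 in the cystine samples and 3 and 2 in the control samples. Cd3 UMIs kept out a further 24 and 10 barcodes with at least 10% immunoglobulin UMIs on cystine, and 5 and 5 on control diet. With those counted in, control sample 1 would lie above cystine sample 1 on this scale. A share of sorted cells does not give the number of cells in the tissue.

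**Figure D4:**
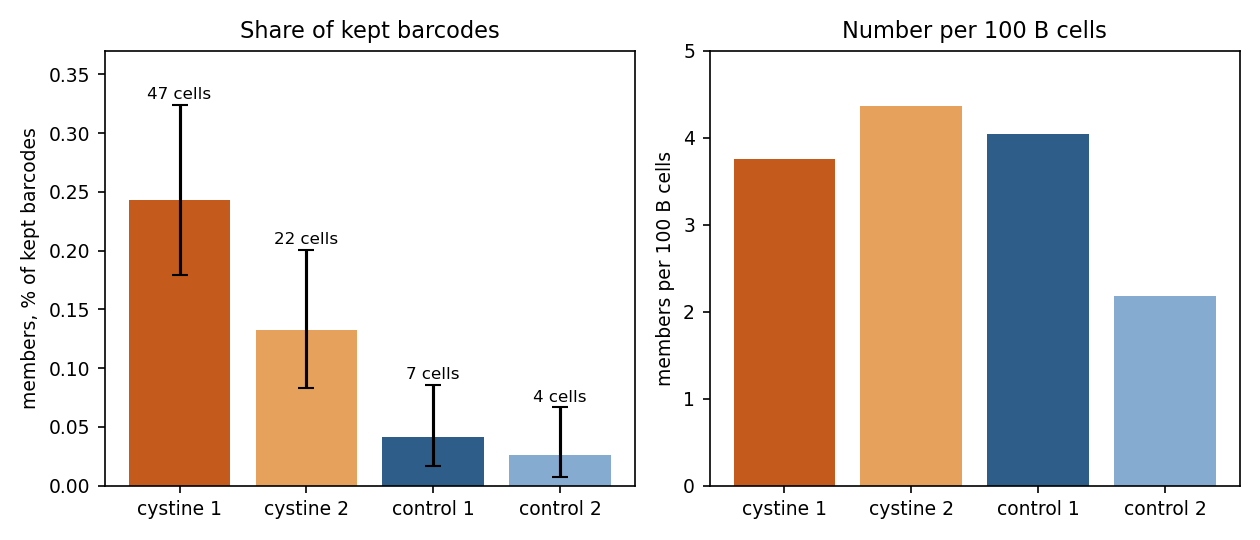
Members as a percentage of kept barcodes with exact 95% intervals (left) and as a number per 100 B cells (right), by sample. The cystine bars of 0.243% and 0.133% lie above the control bars of 0.0416% and 0.0260%, whereas per 100 B cells cystine sample 1, at 3.76, lies below control sample 1, at 4.05.

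The median immunoglobulin share per member was 29.1% and 32.1% in the cystine samples, against 1.33% and 15.7% in the control samples. The groups did not overlap, with a difference of 22.1 percentage points (two-sided exact permutation p = 0.33, the smallest possible). Among Ig-rich members alone the difference was -0.907 points. Ig-rich members made up 68.1% and 77.3% of members in the cystine samples and 42.9% and 50% in the control samples. Members with at least 2 cell division UMIs were 12 of 47 and 4 of 22 in the cystine samples, against 4 of 7 and 1 of 4 in the control samples. These shares, 25.5% and 18.2% against 57.1% and 25.0%, overlapped narrowly and differed by -19.2 points on average, with an exact permutation p of 0.667. Without control sample 1 the difference was -3.14 points. It was 0 points among members with at least 10 Jchain UMIs (12.5% on both diets) and -7.47 points after thinning each cell to 1000 UMIs outside immunoglobulin genes.

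No gene was called between the diets in the members. UMIs were summed over members per sample and tested with edgeR's quasi-likelihood test, and 0 of 962 genes passed a Benjamini-Hochberg adjusted p of 0.05 (0% called), with 75 at an unadjusted p under 0.05. DESeq2's Wald test on the same sums called 7, of which 6 were immunoglobulin genes, and edgeR without cystine sample 1 called 18 of 589, 17 of them immunoglobulin genes. The control sums rest on 39803 and 16073 UMIs, against 258591 and 141278 for the cystine sums. Values below are CPM scaled by trimmed mean of M-values (TMM) over all genes, antibody genes included, and each log2 fold change is that of cystine over control.

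Several ER genes nevertheless stood higher in both cystine samples, though many control levels rest on few UMIs. With control sums of 39803 and 16073 UMIs over all genes, levels near 70.0 CPM stand for very few UMIs. Txndc5, a disulfide isomerase, had 653 and 729 CPM in the cystine samples, against 164 and 70.0 in the control samples (log2 2.37, SE 0.41, adjusted p = 0.485). Rrbp1, the ribosome receptor of the rough ER, had 557 and 490 CPM in the cystine samples and 197 and 140 in the control samples (log2 1.56, SE 0.37, adjusted p = 0.579). For Hspa5 the levels were 1612 and 1082 CPM on cystine and 493 and 770 on control diet (log2 1.15, SE 0.38, adjusted p = 0.611). In each of these genes the groups did not overlap. With 2 samples per diet, such separation alone corresponds to an exact permutation p of 0.33. How many of all 962 tested genes had separate groups was not counted, so it marks out none of the genes named here or below. Creld2 had 611 and 433 CPM in the cystine samples and 230 and 140 in the control samples (log2 1.41, SE 0.43, adjusted p = 0.611). Fkbp11 had 386 and 296 CPM, against 98.5 and 70.0 (log2 1.94, SE 0.54, adjusted p = 0.611). Ddost, an oligosaccharyltransferase subunit, had 611 and 684 CPM on cystine, against 361 and 280 on control diet (log2 0.96, SE 0.31, adjusted p = 0.611). These genes, too, had groups that did not overlap, as did Selenos, a selenoprotein of ER degradation, with 337 and 387 CPM in the cystine samples and 98.5 and 210 in the control samples (log2 1.39, SE 0.49, adjusted p = 0.611). Derl2, another gene of ER degradation, stood the other way, with 80.3 and 79.7 CPM in the cystine samples and 197 and 210 in the control samples (log2 -1.31, SE 0.45, adjusted p = 0.611), and its groups did not overlap either.

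Those folds were smaller within the Ig-rich. With Ig-rich members alone, whose share of members was higher on cystine as given above, log2 fold changes were 1.54 for Txndc5, 0.71 for Rrbp1, 0.50 for Hspa5, 0.64 for Creld2, 1.26 for Fkbp11, 0.06 for Ddost and 0.50 for Selenos, none of them called. With barcodes that held Cd3 UMIs also taken in, they were 0.22 for Txndc5, 0.62 for Rrbp1, 0.38 for Hspa5, 0.01 for Creld2, 0.34 for Fkbp11, 0.15 for Ddost and 0.41 for Selenos, again none called. Derl3 had 439 and 376 CPM in the cystine samples and 0 and 280 in the control samples (adjusted p = 0.621). Hsp90b1 stood at 4172 and 2654 CPM on cystine and 1281 and 2380 on control diet (adjusted p = 0.701). Over the chaperone and folding list, the median log2 fold change of the 18 genes tested was 0.75, against 0.04 over all 962 genes. An unadjusted edgeR p under 0.05 was found for 6 of the 18, against 75 of all 962. The list medians given here are for all members and were not computed within the Ig-rich. This list summed to 28853 non-Ig CPM in Ig-rich and 3019 in Ig-poor members, and the Ig-rich share was higher on cystine. The medians were 0.31 for the 13 tested genes of ER translocation, 0.39 for 10 of the unfolded protein response, 0.32 for 8 of oligosaccharyltransferase, 0.21 for 9 of ER to Golgi transport, -0.68 for 9 of cell division and 0.01 for 9 of B cell identity. Of the cystine and cysteine list 3 genes were tested, with a median of 0.30, and of the ATF4 list 3, with a median of -0.17.

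**Figure D5:**
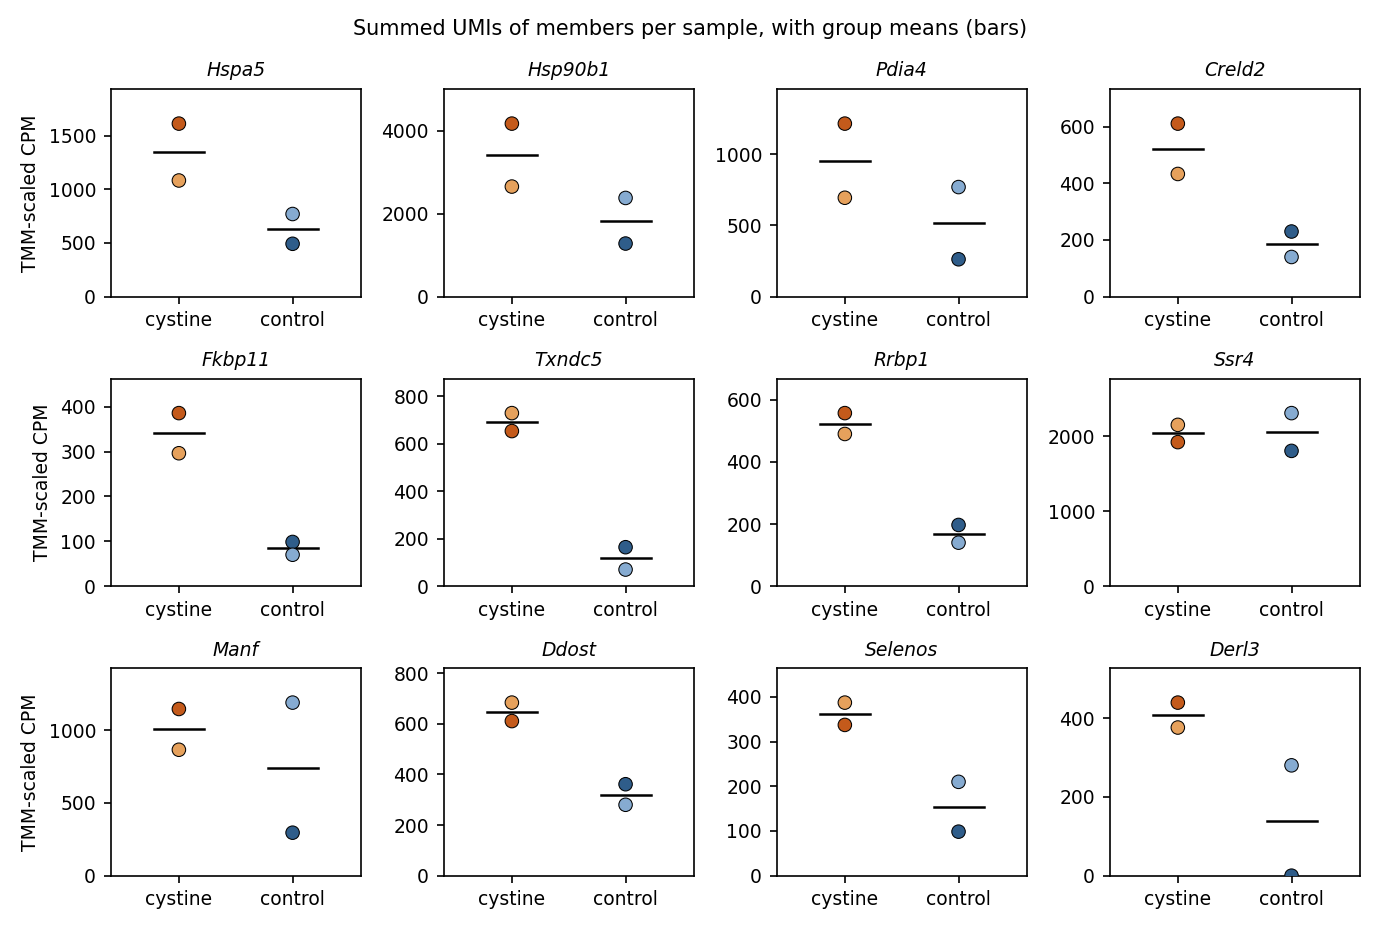
TMM-scaled CPM of 12 ER genes in the summed UMIs of members, 1 point per sample (darker points are sample 1 of each diet) with bars at the means of 2 samples; each panel has its own axis from 0. Txndc5, Rrbp1, Creld2 and Fkbp11 show both cystine samples above both control samples, whereas Pdia4, Manf and Ssr4 overlap. None passed the test, and the control sums held only 39803 and 16073 UMIs over all genes.

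Outside the secretory lists, Ly6k, a member of the Ly6 surface protein family, had 53.6 and 91.1 CPM in the cystine samples, against 558 and 490 in the control samples (log2 -2.95, SE 0.45, adjusted p = 0.431). Among Ig-rich members alone Ly6k was 1 of 3 genes called of 463 by edgeR (log2 -3.60, adjusted p = 0.0400), and the other 2 were immunoglobulin genes. That subset has only 3 and 2 cells in the control samples, and its 10% line was set after the values were seen. Plac8 had 386 and 558 CPM in the cystine samples and 131 and 70.0 in the control samples (log2 2.04, SE 0.52, adjusted p = 0.611). Both genes had groups that did not overlap, and the control levels of Plac8 stand for few UMIs. Phgdh had 230 and 239 CPM in the cystine samples and 98.5 and 0 in the control samples (adjusted p = 0.621), and Ccnb2, a cyclin of mitosis, had 91.0 and 114 CPM against 263 and 210 (adjusted p = 0.611).

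Isotype genes had wide errors. Igha had 889 and 304 UMIs in the cystine samples and 34 and 0 in the control samples (log2 2.75, SE 1.19, adjusted p = 0.621). Ighg2b had 974 and 248 UMIs in the cystine samples and 0 and 6 in the control samples (log2 4.58, SE 1.29, adjusted p = 0.611). Ighg1 had 37 and 1 UMIs in the cystine samples and 108 and 39 in the control samples (log2 -4.76, SE 0.98, adjusted p = 0.579). It was among the genes called by DESeq2 (adjusted p = 0.0116) and by edgeR without cystine sample 1 (adjusted p = 0.0205) or without the count filter (adjusted p = 3.18e-05). Single cells called Ighg1 held 37 of these UMIs in cystine sample 1, 105 in control sample 1 and 39 in control sample 2. Ighm had 608 and 735 UMIs on cystine and 132 and 0 on control diet (log2 1.39, SE 1.63, adjusted p = 0.870).

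The diet effect in members was compared with that in B cells of the same libraries. Of 3723 genes tested for a different effect with the sample as a block, 1 passed an adjusted p of 0.05 (0.0269% called), and 168 had an unadjusted p under 0.05. That gene was Igkv8-27, with 2441 and 1111 UMIs in members of the cystine samples and none in members of the control samples. B cells had 184 and 61 Igkv8-27 UMIs in the cystine samples, against 0 and 50 in the control samples. The difference of log2 fold changes was 14.96 (SE 1.14, adjusted p = 0.0203), a fitted value that depends on how counts of 0 are treated. The member UMIs came from 3 cells that led with Igkv8-27, 2 in cystine sample 1 and 1 in cystine sample 2. Without control sample 2 the gene was no longer called (adjusted p = 1, in a fit whose SE was far larger than its value), and no other gene was. Without cystine sample 1, cystine sample 2 or control sample 1 the test called 47, 34 and 4 genes.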

How the data were processed

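The authors deposited raw UMI counts of 32285 genes for the barcodes they called, each with 500 UMIs or more. The submitters' processing notes list GRCm39 as the build, with Seurat 4.0.1 and Cell Ranger 3.1.0. Software 7.0.1 is given per the file headers. Depth per sample and of the members is given with the results. The members and gene lists were chosen with earlier results of these data known. The line at 10% immunoglobulin UMIs (392 genes, without Jchain) and the alternatives built on it or on Cd3 UMIs were chosen after seeing the data.

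Shares were compared over samples by two-sided exact permutation tests (scipy 1.17.1). UMIs summed per sample were tested with edgeR 4.0.16 (filterByExpr, TMM, glmQLFit, glmQLFTest) in R 4.3.3, with Benjamini-Hochberg adjustment over all genes tested at a threshold of 0.05. The code was tested on simulated data. Alternatives were DESeq2 1.42.0, no count filter, a replicate block, no immunoglobulin genes, 800 genes and 5% mitochondrial UMIs, Jchain at 10 UMIs, samples left out, and removal of the highest Scrublet scores (scanpy 1.11.5). Doublets were not removed in the main results, where 4 members, all Ig-poor, had such scores.

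Genes were named by a rule: called genes, up to 6 of each list by level, the 20 leading genes and the most frequent V genes. Bcl6, Plac8, Ly6k, Rrbp1, Derl2 and the low list members were named after their values were seen. V gene sequences came from GENCODE transcripts and promoters from RefSeq. The gene lists name 2 ER oxidases as in the files, Ero1l and Ero1lb, matched to the RefSeq symbols Ero1a and Ero1b for promoters.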

Additional observations from a re-analysis of the deposited data

Results flagged for a closer look

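Igkv8-27 stands out because its diet effect differed between members and B cells. The difference of log2 fold changes was 14.96 (SE 1.14, adjusted p = 0.0203 by edgeR's quasi-likelihood test). Members had 2441 and 1111 UMIs in the cystine samples and none in the control samples, and B cells had 184 and 61 in the cystine samples and 0 and 50 in the control samples. Of the member UMIs, 2354 came from 1 Ig-rich cell called Ighg2b and 86 from 1 Ig-poor cell in cystine sample 1, and 1111 from 1 Ig-rich cell called Igha in cystine sample 2. In 7 of 9 alternatives the difference lay between 14.27 and 16.86. With 800 genes and 5% mitochondrial UMIs and without control sample 2 the SE was far larger than the value (adjusted p = 1 in both), so these fits give no direction. The gene was also no longer called with Ig-rich members alone (adjusted p = 0.0785) or with Cd3 UMIs allowed (adjusted p = 0.0579).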

How the results depend on the processing

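The difference in the members' share of kept barcodes (0.154 points) kept its direction under all 12 alternatives, but some of these could not have reversed it. Both cystine samples lay above both control samples, so leaving 1 sample out could not change the sign. The replicate block gives the main difference by construction. It was 0.248 under a cell filter of 800 genes and 5% mitochondrial UMIs, 0.237 with Cd3 UMIs allowed, 0.154 with the replicate number as a block, and 0.0989 to 0.210 with 1 sample left out; per 100 B cells it was 0.947 members. The IgA difference ranged from -9.36 to 23.98 points with 1 sample left out, and the lambda difference from -11.6 to 18.4, reversing without cystine sample 2 (-3.29) and without control sample 1 (-11.6). The difference in immunoglobulin share was 6.88 points with Jchain at 10 UMIs or more, 10.4 with Cd3 UMIs allowed, 10.3 from summed UMIs, -0.907 with Ig-rich members alone and 14.8 to 29.3 with 1 sample left out. The dividing share differed by 4.50 points with Ig-rich members alone, 0 with Jchain at 10 UMIs or more, -7.47 after thinning, -8.92 with Cd3 UMIs allowed and by -35.3 to -3.14 with 1 sample left out. Genes called between the diets numbered 7 by DESeq2, 82 of 10214 with no count filter, where the median log2 fold change of all genes was 1.35, 3 with Ig-rich members alone and 0 to 18 with 1 sample left out (18 without cystine sample 1). Genes whose diet effect differed from B cells numbered 6 without immunoglobulin genes (Camk1d, Slpi, Cd52, Plac8, Hsp90b1 and Ly6d), 4 with Jchain at 10 UMIs or more, 0 under the stricter cell filter, with Ig-rich members alone and with Cd3 UMIs allowed, and 0 to 47 with 1 sample left out (47 without cystine sample 1, 34 without cystine sample 2, 4 without control sample 1, 0 without control sample 2). With Cd3 UMIs allowed the log2 fold change of Igha was -0.52 and that of Ighm -0.46. The causes were not tested. Same-numbered samples did not deviate together (r = -0.0094 across 962 genes), and the block called 0 genes. With sums over so few cells, that correlation cannot show whether same-numbered samples were handled as pairs. With 4 and 7 members in the control samples, counts of single cells limit every control value.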

Other observations

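Among the 20 genes highest in members relative to the other kept barcodes, 3 that the lists do not hold and that are not immunoglobulin genes were Apoe, Gm30211 and Prg2. Apoe, which encodes apolipoprotein E, had 4285 and 8650 CPM in members of the cystine samples and 3693 and 7839 in members of the control samples. It was found in 83.3% of Ig-rich and 80.8% of Ig-poor members, against 1.39% and 0.488% of T cells in the cystine samples and 0.686% and 0.543% in the control samples. B cells held Apoe more often than T cells, in 13.1% and 18.1% in the cystine samples and 8.67% and 10.4% in the control samples. These shares were not scaled to depth. Median depth was 6208.5 UMIs in Ig-rich and 4512.5 in Ig-poor members, against 1151 to 1301 in B cells and 1382 to 1758 in T cells. Prg2, known as eosinophil major basic protein, had 449 and 2230 CPM in members of the cystine samples and 25.1 and 809 in members of the control samples, with no UMI in the B cells of any sample. Gm30211 had 4985 and 2470 CPM in members of the cystine samples and 3492 and 1493 in members of the control samples. These genes led by the measure that also reflects the rule, so they are described without a test.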
